A study of Mus musculus with 12 samples.

Results

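Sncb and Sncg encode beta-synuclein and gamma-synuclein, small presynaptic proteins of the same family as the alpha-synuclein whose fibrils were added to these neurons. Chromatin accessibility around the 2 genes was read from the ATAC-seq peak lists of 12 libraries. Peaks that overlapped by at least 1 bp in any of the 12 lists were merged into regions, and the regions inside either gene or within 20 kb on either side were kept (GENCODE vM21 genes, GRCm38). This gave 25 of 263785 regions, 14 at Sncb and 11 at Sncg.

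Synucleins bind curved, negatively charged membranes such as those of synaptic vesicles, and they act around the SNARE complex that drives vesicle fusion. Beta-synuclein is abundant at cortical synapses and lacks part of the hydrophobic stretch that lets alpha-synuclein form fibrils. Gamma-synuclein is best known from sensory and motor neurons, retinal ganglion cells and some tumours.

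All libraries came from primary cortical neurons of embryonic day 18 C57BL/6 wild-type mice, and their labels give a single batch. There were 4 groups with 3 biological replicates each. Control neurons received PBS. PFF-treated neurons received alpha-synuclein pre-formed fibrils for 7 days. The PFF+MLi-2 group had the same fibrils with MLi-2, which inhibits LRRK2 (a kinase of Rab GTPases), over the final 5 days, and the PFF+Rab5 ASO group had the fibrils with antisense oligonucleotides against Rab5, a GTPase of early endosomes, over the final 3 days. For the last 2 groups, GEO's description field mentions PBS where title, treatment field and design text mention fibrils, and grouping followed the title and treatment field. MLi-2 or the oligonucleotides without fibrils were not analysed here, so an effect of either agent alone cannot be told apart from an effect on fibril-treated neurons.

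The lists held between 137417 and 184717 peaks per library, with a median pileup at the summit of 16 to 18 fragments. A fragment here is a unit of pileup as the peak caller counted it, and how it counted is not given in the sources used here. Read totals were not used here. The commonest background level was 1.503 to 1.73 fragments in the PFF libraries. It was 1.72 to 1.78 for PBS, 1.77 to 1.90 for PFF+MLi-2 and 1.82 to 2.11 for PFF+Rab5 ASO, and median peak widths were 112 to 124 bp in PFF+Rab5 ASO against 127 to 139 bp in the other groups. All 5 neuronal markers (Map2, Tubb3, Rbfox3, Neurod6 and Slc17a7) had a peak within 1 kb of a start site in all 12 libraries, as did the astrocyte markers Gfap, Aqp4 and Aldh1l1. Of the microglial markers, Cx3cr1 had none, P2ry12 had one in 3 libraries and Csf1r in 7. Of the oligodendrocyte markers given here, Mog had none and Mbp had one in all 12. In these bulk libraries, fewer cells of a type and less accessible chromatin per cell cannot be told apart.

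Sncb lies at chr13:54758860-54766595 and Sncg at chr14:34370274-34374789, both on the minus strand, with lengths of 7736 and 4516 bp. Regions were numbered from the low to the high coordinate at each gene, so region 1 lay farthest downstream. The 300 bases around the RefSeq start site of each gene are shown first because these windows behaved differently in the lists: the Sncb window overlapped a strong peak, apart from its most upstream bases, and the Sncg window overlapped none. They run 5′ to 3′ on the minus strand of GRCm38.p6, from 250 bases before the start site to 50 after it, at chr13:54766546-54766845 and chr14:34374620-34374919. Capitals mark GGGCGG and CCAAT on either strand, the core letters bound by Sp/KLF factors and by NF-Y.
Sncb promoter: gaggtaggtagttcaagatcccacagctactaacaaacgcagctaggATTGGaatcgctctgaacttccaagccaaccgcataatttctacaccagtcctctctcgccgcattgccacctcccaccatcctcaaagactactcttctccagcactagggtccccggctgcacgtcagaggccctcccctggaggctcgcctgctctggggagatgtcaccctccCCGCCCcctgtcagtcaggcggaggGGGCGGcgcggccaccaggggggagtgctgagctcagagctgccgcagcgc
Sncg promoter: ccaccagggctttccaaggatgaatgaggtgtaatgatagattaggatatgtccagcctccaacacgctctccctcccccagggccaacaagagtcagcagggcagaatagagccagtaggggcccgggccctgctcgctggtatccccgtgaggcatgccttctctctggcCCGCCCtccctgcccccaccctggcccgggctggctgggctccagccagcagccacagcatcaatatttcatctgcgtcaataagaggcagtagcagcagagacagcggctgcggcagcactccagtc
The Sncb window held 2 matches to GGGCGG and 1 to CCAAT, and the Sncg window held 1 to GGGCGG and none to CCAAT. Over all 32851 RefSeq promoter windows of this length, 35.7% held GGGCGG and 37.4% held CCAAT. GC content was similar, at 62% for Sncb and 61.3% for Sncg, above 75.3% and 73.8% of promoters. The Sncb window had 15 CG dinucleotides and the Sncg window 9, for observed-over-expected CpG ratios of 0.532 and 0.323 against a median of 0.384 over all promoters. The GENCODE start site of Sncg lies 120 bp upstream of the RefSeq one, inside the printed window, and the start sites of Sncb coincide.

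Further stretches are printed because the group differences at Sncg fell in or beside them. They are on the plus strand of GRCm38, and capitals mark TGANTCA, the core letters of AP-1 sites, and CACGTG, an E-box that bHLH factors such as TFEB and TFE3 can bind. Region 3 (chr14:34363554-34363690) and 201 bases of its neighbour, region 4 (chr14:34363780-34363980), lie downstream of Sncg. Region 7 (chr14:34378526-34378796) lies upstream. The region 4 window is centred on the summit of the peak with the highest fold percentile among the libraries, that of PBS replicate 3.
Sncg region 3: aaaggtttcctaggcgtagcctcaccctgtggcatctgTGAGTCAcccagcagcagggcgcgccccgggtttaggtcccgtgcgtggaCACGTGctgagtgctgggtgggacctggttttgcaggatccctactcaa
Sncg region 4 summit window: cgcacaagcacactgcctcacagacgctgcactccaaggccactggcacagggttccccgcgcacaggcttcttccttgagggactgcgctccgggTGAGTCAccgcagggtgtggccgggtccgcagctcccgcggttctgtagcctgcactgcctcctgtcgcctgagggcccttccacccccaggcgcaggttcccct
Sncg region 7: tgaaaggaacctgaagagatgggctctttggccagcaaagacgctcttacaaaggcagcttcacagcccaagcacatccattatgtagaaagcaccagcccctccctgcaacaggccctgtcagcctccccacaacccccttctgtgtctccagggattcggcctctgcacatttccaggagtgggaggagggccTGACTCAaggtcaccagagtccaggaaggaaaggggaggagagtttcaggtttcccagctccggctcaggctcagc
Region 3 held 1 TGANTCA and 1 CACGTG, and the region 4 window and region 7 each held 1 TGANTCA. Both strands were searched, and no pair of these letters overlapped another. Windows of 201 bp chosen in this way held TGANTCA in 4 of 11 Sncg regions (1, 3, 4 and 7) and in 2 of 14 Sncb regions, against 10.8% of 263560 such windows across all regions. CACGTG was in 1 Sncg and 1 Sncb window (region 10), against 3.51% of all windows. GGGCGG was in 3 Sncb windows and 1 Sncg window (9.53% of all), CCAAT in 3 and 2 (24.4% of all), and TGACGTCA, the cAMP response element, in none (0.408% of all). These matches describe letters only.

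The 2 genes differed in where their accessible chromatin lay. Sncb had 3 regions within 1 kb of its own start site and 4 inside the gene. Sncg had 0 within 1 kb of its start site and 2 inside the gene, and the other 9 lay in the flanks, several of them in Mmrn2, an endothelial multimerin gene that starts 676 bp from the Sncg start site and runs the opposite way. By annotation, the Sncb regions were 5 promoter regions (3 of Sncb and 2 of the neighbouring Gprin1), 5 intronic and 4 intergenic, and the Sncg regions were 1 exonic, 6 intronic and 4 intergenic. A peak in all 12 libraries was found in 8 of 14 Sncb regions and 4 of 11 Sncg regions, together 48% of the members against 27.5% of all regions. One Sncb and one Sncg region had a peak in 1 library only, together 8% against 26.6% of all regions.

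**Figure D1:**
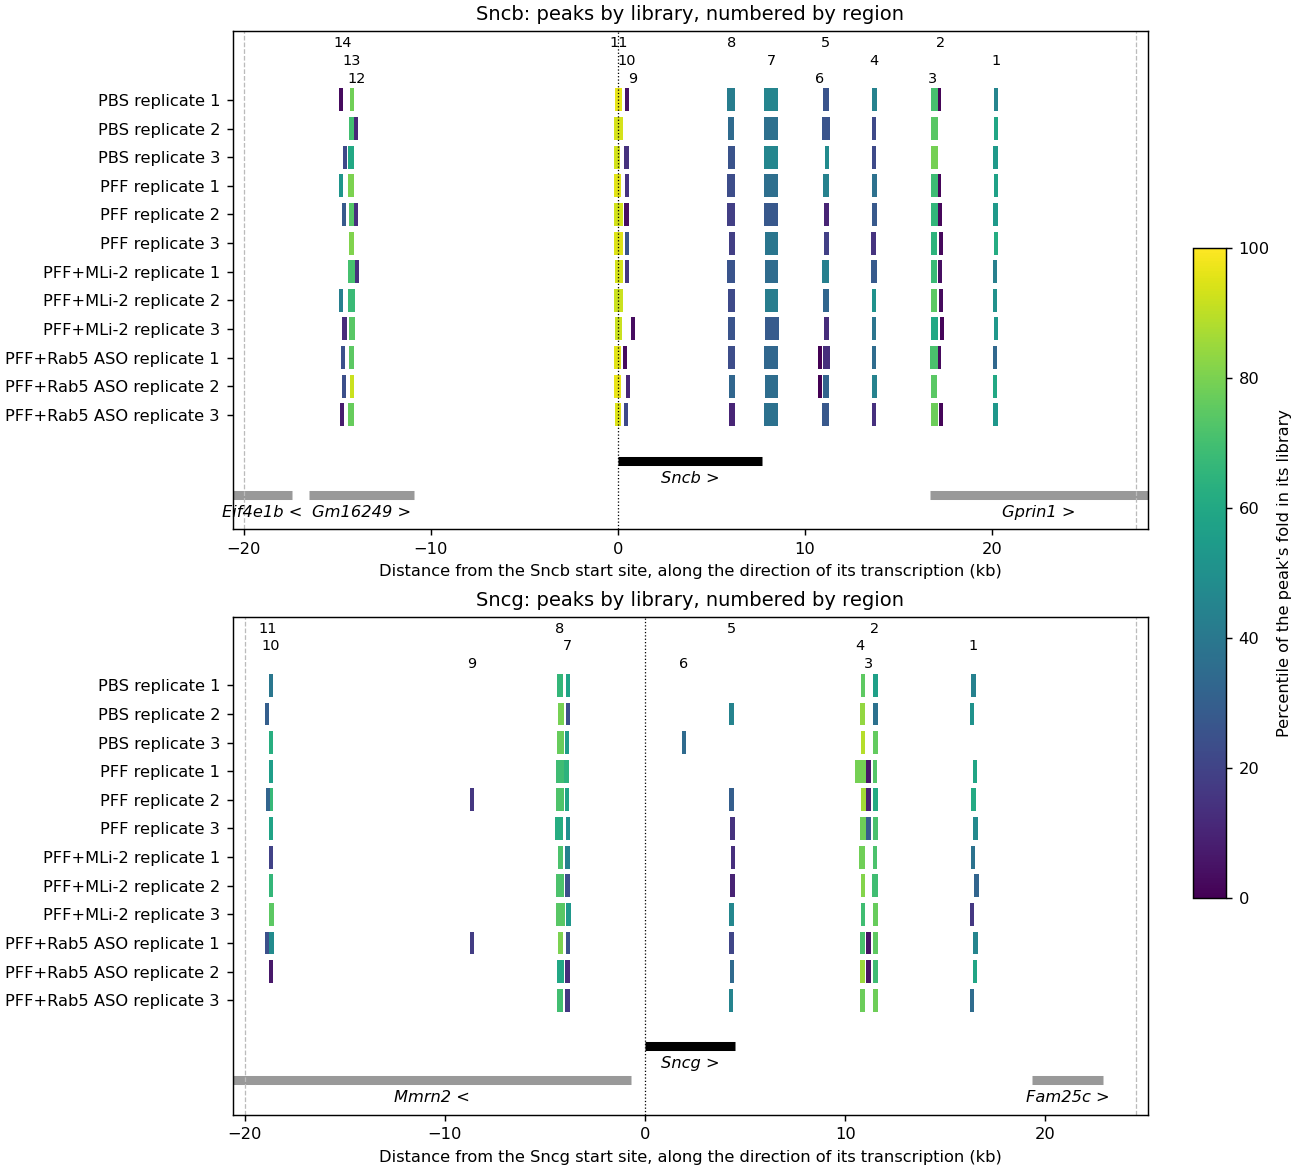
Peaks at Sncb (top) and Sncg (bottom) by library. The horizontal axis is the distance from the start site in kb along the direction of transcription, each row is a library, a bar is the highest peak of a region in that library (drawn at least 0.22 kb wide), colour is the percentile of its fold within the library, small numbers are region numbers and dashed lines bound the 20 kb windows. Sncb has a bright column at its start site (region 11, percentiles 92.0 to 96.7), and Sncg has no bar there.

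The fold of a peak is its summit pileup over the local background, as MACS2 computed it (both plus 1). Because depth and list length differ between libraries, each fold is also given as a percentile among all peaks of its own list. The Sncb start-site region, region 11 (chr13:54766298-54766794, 497 bp), reached percentiles of 96.2, 93.6 and 93.3 with PBS, 95.3, 93.3 and 94.9 with PFF, 93.5, 92.0 and 92.0 with PFF+MLi-2 and 95.4, 96.7 and 94.7 with PFF+Rab5 ASO. The groups overlapped except that all PFF+Rab5 ASO libraries lay above all PFF+MLi-2 libraries, a pair that was not tested. Its summits fell 25 to 72 bp upstream of the start site, with pileups of 50 to 65 fragments and folds of 9.68 to 12.1. The mean percentile over the 12 libraries was 94.2 ± 1.53 (SD, n = 12), above 57.8% of the 13256 protein-coding genes whose start-site region had a peak in every library (their median was 92.5).

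Differences between groups were tested with limma on normal scores, the rank of a region's fold among the 72465 regions that each library held, turned into a standard normal quantile, with Benjamini-Hochberg adjustment over all of them. For Sncb region 11 the limma differences across the 5 comparisons ran from -0.15 to 0.10 normal-score units, with SE of 0.186 to 0.206 and adjusted p from 0.814 to 0.983. The sign of the differences from PFF to PBS and from PFF+Rab5 ASO to PFF changed with the processing, as the closing section gives. Immediately downstream of it, separated by 7 bp, region 10, which overlaps an exon of Sncb, had a peak in 9 libraries, 2 of PBS, 3 of PFF, 1 of PFF+MLi-2 and 3 of PFF+Rab5 ASO, at percentiles of 3.02 to 26.2. Region 9, 65 bp wide in a Sncb intron, had a peak in 1 PFF+MLi-2 library at percentile 3.28.

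The promoters whose score moved most like that of Sncb across the 12 libraries were those of Alkbh3 (Pearson r = 0.88), Rwdd3 (0.875) and Kif2c (0.856), the highest among 13255 genes. With 12 points and so many genes this is a description of the libraries. No such value exists for Sncg, whose nearest region had a peak in 1 library.

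At Sncg the start site had a peak within 1 kb in 0 of 12 libraries, which was so for 6357 of 21911 protein-coding genes (29.0%). The nearest region, region 6 (chr14:34372805-34372878), lay in a Sncg intron 1911 bp from the start site, and PBS replicate 3 alone had a peak there, with a pileup of 15 fragments and percentile 34.6. Region 5 (chr14:34370362-34370542), in the exonic 3′ part of Sncg, had a peak in 9 libraries. PBS had it in 1 library (percentile 44.7), PFF in 2 (29.4 and 14.2), PFF+MLi-2 in 3 (13.6, 9.51 and 46.1) and PFF+Rab5 ASO in 3 (20.8, 34.3 and 45.0). The pileups there were 10 to 17 fragments, with 14 in the PBS library and 12 and 10 in the PFF libraries. The single PBS percentile lay above both PFF percentiles and within the ranges of the other 2 groups.

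The promoters of 15 synuclein partners and presynaptic genes give a setting for these levels. A peak within 1 kb of the start site was present in all 12 libraries for 14 of them, with mean percentiles from 71.7 (Sncaip, the synphilin gene) to 98.7 (Syn1, synapsin 1). Vamp2, the vesicle SNARE that synucleins contact, was at 87.3 ± 4.22 and Snap25, a plasma membrane SNARE, at 92.8 ± 2.66 (SD, n = 12). Rab3a had no peak there in the lists used here. None of their 44 regions was gained or lost in any of the 5 comparisons, where 0.803 to 4.57% of all regions were. Limma called 0 of the 14 in each comparison (lowest adjusted p = 0.265), where it called 0 to 3.83% of all tested regions. At an unadjusted p below 0.05 (limma), Stx1a, a plasma membrane syntaxin, passed in PFF against PBS and in PFF+Rab5 ASO against PBS, with differences of -0.50 and -0.44, and no other partner passed. Such a p was reached by 9.72% and 18.7% of all tested regions in these comparisons.

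Sncb regions 4, 5, 7 and 8, inside and downstream of the gene, were high in fragments but low in fold. Region 7 (chr13:54758003-54758763, 761 bp), just past the 3′ end of Sncb, had 58 to 70 fragments at its summit, a range that overlapped that of the start site, but its background was 11.6 to 14.5 fragments against 4.06 to 4.81 at the start site. Its folds of 4.26 to 5.10 placed it at percentiles of 27.2 to 45.9. Region 7 had an observed-over-expected CpG ratio of 0.685 against 0.577 in the start-site region. Region 8 in a Sncb intron (44 to 56 fragments over 10.1 to 12.7) and regions 5 and 4 downstream (49 to 68 over 11.1 to 14.04, and 39 to 54 over 8.58 to 11.6) had the same shape. At Sncg no region had a background above 3.81 fragments, and the strongest, region 4, had 26 to 35 fragments and folds of 6.25 to 9.17.

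**Figure D2:**
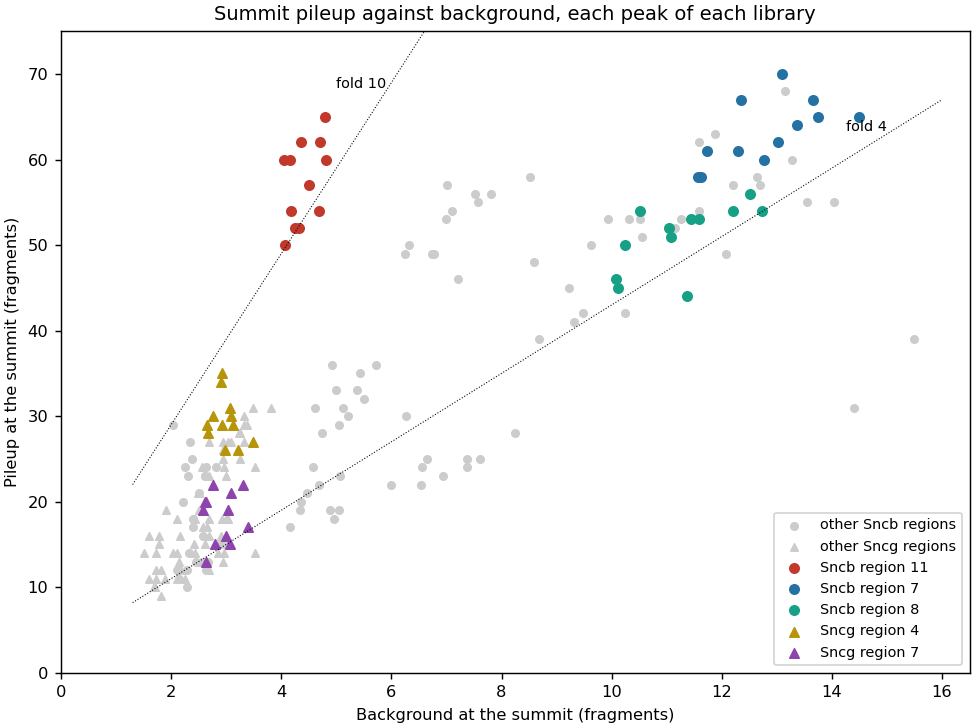
Summit pileup (vertical axis, fragments) against local background (horizontal axis, fragments) for the highest peak of each member region in each library. Circles are Sncb and triangles Sncg regions, and dotted lines join points of equal fold. Sncb regions 11 and 7 have like pileups (50 to 65 and 58 to 70 fragments) at backgrounds that do not overlap.

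Of the Sncb regions found in every library, region 8 (chr13:54760306-54760758) had the widest range of group means of the fold percentile in the whole list. When percentiles were taken among the regions common to all libraries, its group means ran from 3.35 to 7.62, a narrower range than at region 13 (40.4 to 58.5) or region 3 (32.4 to 47.7). In the whole list its percentiles were 42.0, 34.4 and 25.5 with PBS, 23.2, 18.4 and 18.4 with PFF, 25.9, 22.4 and 26.01 with PFF+MLi-2, and 23.1, 32.5 and 10.3 with PFF+Rab5 ASO. All PFF libraries lay below all PBS libraries (34.0 ± 8.28 in PBS and 20.01 ± 2.75 in PFF, SD, n = 3). The fragments themselves were not fewer, at 53 to 56 in PFF and 46 to 54 in PBS, and the background beneath them was higher, at 11.6 to 12.5 against 10.1 to 10.5. The normal-score difference from PFF to PBS was -0.39 with SE 0.203 (limma, adjusted p = 0.577). With MLi-2 the score was 0.27 above PFF (SE 0.183, limma, adjusted p = 0.615), again without overlap on the score.

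Region 4 (chr13:54752732-54753031), between Gprin1 and Sncb, had percentiles of 43.9, 21.9 and 22.3 with PBS, 37.0, 27.7 and 15.01 with PFF, 27.8, 50.9 and 39.0 with PFF+MLi-2, and 34.9, 43.8 and 13.97 with PFF+Rab5 ASO. The percentiles of all groups overlapped, whereas on the normal score the PFF+MLi-2 libraries lay above the PFF libraries. That difference, 0.52 with SE 0.227, had an unadjusted p of 0.0473 and an adjusted p of 0.431 (limma).

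Region 13 (chr13:54780658-54781052), in an intron of the non-coding gene Gm16249 upstream of Sncb, was the second strongest Sncb region. Its percentiles were 78.2, 69.6 and 60.05 with PBS, 80.1, 73.4 and 81.02 with PFF, 70.5, 67.9 and 74.2 with PFF+MLi-2, and 74.7, 92.04 and 76.8 with PFF+Rab5 ASO, with 18 to 29 fragments over 2.04 to 2.82. The groups overlapped in each comparison, and limma gave adjusted p from 0.415 upward in the pairwise comparisons. Its flanking regions 12 and 14 had peaks in 3 and 9 libraries. The percentiles of region 14 were 3.11 and 22.04 with PBS, 52.2 and 27.95 with PFF, 42.7 and 12.4 with PFF+MLi-2, and 24.99, 23.9 and 7.67 with PFF+Rab5 ASO. Both PFF values there lay above the PBS and PFF+Rab5 ASO values, on 10 to 17 fragments, and without a peak in every library the region was not tested. The share of all regions with so few values that separate in this way was not counted. Region 3 at the Gprin1 promoter (46 to 58 fragments) was at 59.8 to 79.1 and region 1 in a Gprin1 intron at 33.3 to 61.4. Region 2, also at the Gprin1 promoter, had peaks in 9 libraries at percentiles of 0.894 to 3.77. Region 6 had peaks in 2 PFF+Rab5 ASO libraries only, at percentiles of 0.0549 and 0.000298, the weakest folds among the members.

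At Sncg the strongest regions were centred 10729 bp (region 4) and 11495 bp (region 2) downstream of the start site, and from 4018 bp upstream of it (region 8). Region 4 (chr14:34363769-34364352, intergenic) was at 75.1, 83.9 and 89.0 with PBS, 79.0, 86.2 and 77.9 with PFF, 78.5, 81.6 and 69.4 with PFF+MLi-2, and 71.4, 85.04 and 77.6 with PFF+Rab5 ASO, with all groups overlapping. Region 8 (chr14:34378807-34379286), in a Mmrn2 intron, was at 66.3, 79.4 and 76.6 with PBS, 68.8, 72.04 and 61.8 with PFF, 71.8, 71.7 and 73.98 with PFF+MLi-2, and 80.2, 59.5 and 69.6 with PFF+Rab5 ASO, and these percentiles overlapped. On the normal score its PFF+MLi-2 libraries lay above its PFF libraries, by 0.34 with SE 0.188 (limma, adjusted p = 0.536). Region 2 (chr14:34363162-34363427) was at 56.5, 37.2 and 76.1 with PBS, 73.1, 60.6 and 71.04 with PFF, 71.7, 69.4 and 76.8 with PFF+MLi-2, and 75.3, 68.9 and 77.9 with PFF+Rab5 ASO. PBS replicate 2 was the lowest, PBS replicate 3 lay among the treated libraries, and the difference from PFF to PBS was 0.34 with SE 0.326 (limma, adjusted p = 0.781).

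Between those downstream regions lay the member that was gained or lost, region 3 (chr14:34363554-34363690, 137 bp), 126 bp from region 2 and 78 bp from region 4. Gained means a peak in 3 of 3 libraries of the group named first and in 0 of 3 of the other, and lost means the reverse, which is a description because 3 against 3 libraries cannot give an exact permutation p below 0.1. Region 3 had no peak in the 3 PBS libraries, a peak in all 3 PFF libraries (13, 14 and 16 fragments, percentiles 5.72, 8.85 and 28.4), none in the 3 PFF+MLi-2 libraries and a peak in 2 PFF+Rab5 ASO libraries (14 and 12 fragments, percentiles 4.56 and 5.06). It was thus gained in PFF against PBS and lost in PFF+MLi-2 against PFF. These are weak peaks near the limit of the lists. At the background of its neighbours, a peak would have needed 11 fragments in each PBS library, 10 or 11 in PFF, 11 or 12 in PFF+MLi-2 and 10 to 12 in PFF+Rab5 ASO, so a library without a peak may still hold fragments. The commonest background was 1.503 to 1.73 fragments in PFF, below that of PFF+MLi-2 and overlapping that of PBS, and its part in this result was not tested.

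Over all members, 1 of 23 regions with a peak in either group was gained in PFF against PBS, where 1.5% of all regions were gained or lost, and 1 of 23 was lost in PFF+MLi-2 against PFF, where the share was 2.01%. None of 23 was gained or lost in PFF+Rab5 ASO against PFF (4.57% of all regions), none of 22 in PFF+MLi-2 against PBS (0.803%) and none of 24 in PFF+Rab5 ASO against PBS (3.58%). The first 2 comparisons share the PFF libraries, so the gain and the loss rest on the same 3 lists. Among the cell-type markers, 1 of 9 astrocyte regions, at Aldh1l1, was gained or lost in PFF against PBS and 1 of 9, again at Aldh1l1, in PFF+Rab5 ASO against PFF, and 2 of 30 neuronal regions, at Map2 and Tubb3, in PFF+Rab5 ASO against PBS. Their part in the results at the members was not tested. With peaks of a -log10 q of at least 5 alone, region 3 was neither gained nor lost. With equal numbers of top peaks from each library it had a peak in 1 PFF library and was neither gained nor lost, and Sncb region 2 was gained in its place (0 PBS and 3 PFF libraries).

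The member that passed a test was Sncg region 7 (chr14:34378526-34378796), in a Mmrn2 intron 3737 bp upstream of the Sncg start site and 10 bp from region 8. Its percentiles were 58.6, 23.3 and 55.4 with PBS, 64.3, 58.2 and 49.8 with PFF, 43.4, 24.4 and 53.4 with PFF+MLi-2, and 24.6, 12.3 and 16.4 with PFF+Rab5 ASO. The PFF+Rab5 ASO libraries lay below all PFF libraries, and their mean fell from 57.5 ± 7.28 to 17.8 ± 6.29 (SD, n = 3). Fragments at the summit were 22, 20 and 19 in PFF and 17, 13 and 15 in PFF+Rab5 ASO, over backgrounds of 2.58 to 2.76 and 2.64 to 3.40. The normal-score difference was -1.05 with SE 0.195 (limma, adjusted p = 0.0255), lower in 3 of 3 libraries.

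Against PBS the PFF+Rab5 ASO score of region 7 was lower by a difference of -0.75 with SE 0.255, which did not pass (limma, adjusted p = 0.146). On percentiles PBS replicate 2, at 23.3, lay within the PFF+Rab5 ASO range of 12.3 to 24.6, while on the normal score the groups did not overlap. PFF stood 0.30 above PBS (SE 0.257, limma, adjusted p = 0.756), and PFF+MLi-2 differed from PFF by -0.35 (SE 0.249, limma, adjusted p = 0.627). The difference from PFF to PBS was 0.05 without PBS replicate 2, 0.39 without PBS replicate 1 and 0.46 without PBS replicate 3. In the test over all 4 groups region 7 had an adjusted p of 0.0934 (limma). The call in PFF+Rab5 ASO against PFF was lost whenever any of the 6 libraries was left out, with differences of -1.12 to -0.97 and adjusted p from 0.0587 to 0.0726. Over the same 6 left-out libraries the regions called across the genome went from 2772 to between 0 and 995 of 72465. With the shortest list's number of top peaks taken from each library, region 7 was no longer among those found in every library and could not be tested. Across the genome, peaks in PFF+Rab5 ASO were narrower than in PFF and the commonest background was higher, and the part of either in this result was not tested. Region 8, 10 bp away, had fold percentiles of 80.2, 59.5 and 69.6 in PFF+Rab5 ASO and overlapped the PFF libraries (difference 0.11, SE 0.235, limma, adjusted p = 0.831).

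**Figure D3:**
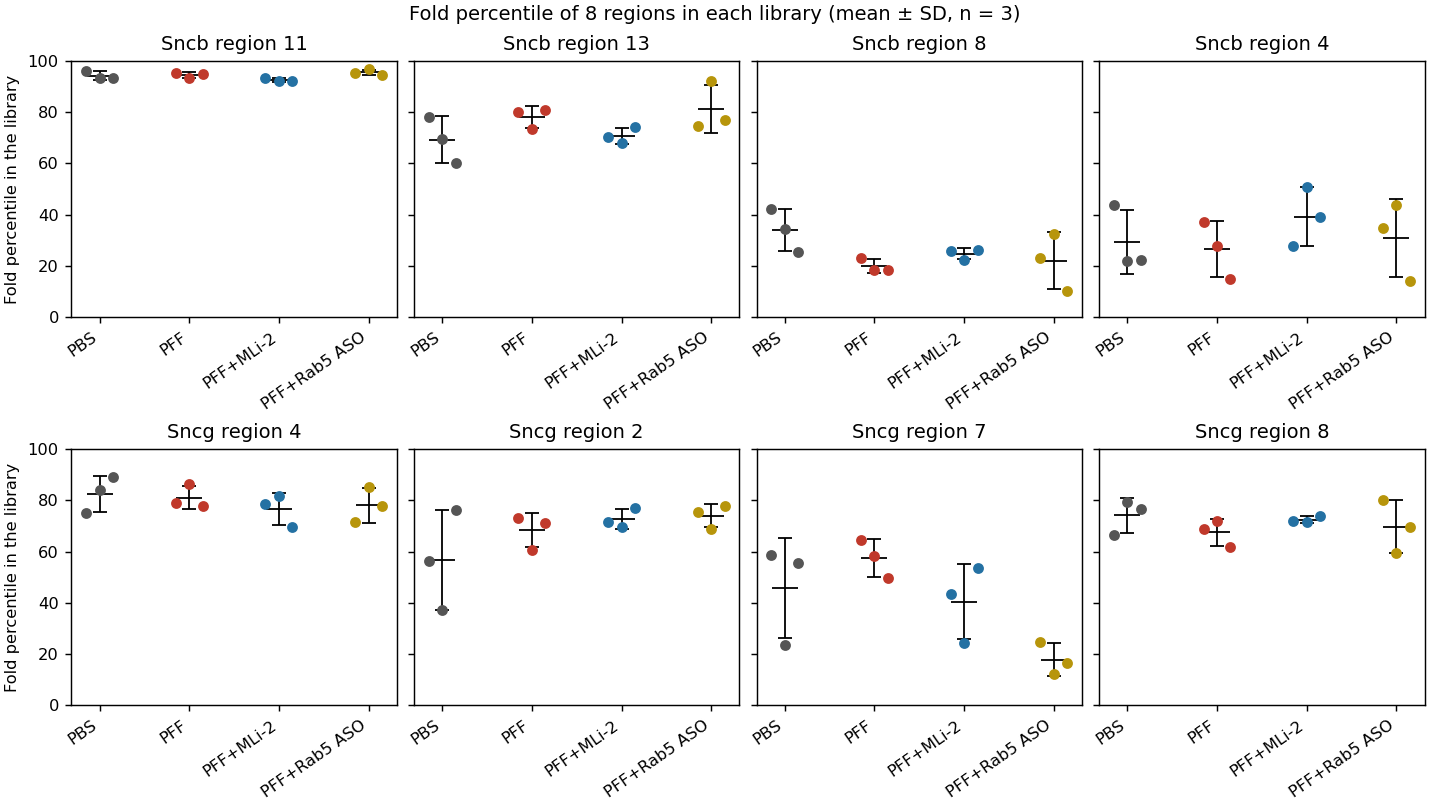
Fold percentile (vertical axis, percent of the library's peaks with a lower fold) of 8 regions in each library, by group. Coloured points are libraries, and black lines are the mean ± SD of 3. Sncb region 11 stays between 92.0 and 96.7, and Sncg region 7 falls to between 12.3 and 24.6 in PFF+Rab5 ASO.

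Over the 12 members with a peak in all libraries, limma called 0 in PFF against PBS (0% of all regions were called), 0 in PFF+MLi-2 against PFF (0%), 1 in PFF+Rab5 ASO against PFF (3.83%), 0 in PFF+MLi-2 against PBS (0%), 0 in PFF+Rab5 ASO against PBS (1.63%) and 0 in the test over 4 groups (3.5%). At an unadjusted p below 0.05 the counts were 0, 1, 1, 0, 1 and 1 in this order, Sncb region 4 in the second comparison and Sncg region 7 in the others. Such a p below 0.05 was reached by 7044 of the 72465 regions (9.72%) in PFF against PBS, 8289 (11.4%) in PFF+MLi-2 against PFF, 15321 (21.1%) in PFF+Rab5 ASO against PFF, 4179 (5.77%) in PFF+MLi-2 against PBS, 13527 (18.7%) in PFF+Rab5 ASO against PBS and 15746 (21.7%) over 4 groups. With 3 libraries in a group, a difference that missed the threshold is not shown to be absent.

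In PFF against PBS 2 of 8 Sncb and 2 of 4 Sncg regions had a positive difference, with 4 of 14 partner promoters and 47.4% of all regions. In PFF+MLi-2 against PFF these were 5 of 8, 2 of 4, 12 of 14 and 51.7%, and in PFF+Rab5 ASO against PFF 7 of 8, 2 of 4, 9 of 14 and 51.04%. The median difference over the 12 members was -0.12, 0.19 and 0.09 in this order, against -0.02, 0.01 and 0.01 over all regions. These comparisons share the PFF libraries. In PFF+MLi-2 against PBS the counts were 2 of 8, 2 of 4, 11 of 14 and 50.4%, and in PFF+Rab5 ASO against PBS 3 of 8, 1 of 4, 6 of 14 and 48.5%. The median differences were -0.06 and -0.17, against 0.00 and -0.01 over all regions, and both comparisons share the PBS libraries with the first.

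Groups whose scores did not overlap were found for 1 of 12 members in PFF against PBS (Sncb region 8, lower; 15.1% of all regions did not overlap), for 3 in PFF+MLi-2 against PFF (Sncb regions 4 and 8 and Sncg region 8, all higher; 17.7%), for 2 in PFF+Rab5 ASO against PFF (Sncb region 3 higher and Sncg region 7 lower; 25.9%), for 0 in PFF+MLi-2 against PBS (10.3%) and for 1 in PFF+Rab5 ASO against PBS (Sncg region 7, lower; 23%). Apart from Sncg region 7 in PFF+Rab5 ASO against PFF, none of these passed the limma test.

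**Figure D4:**
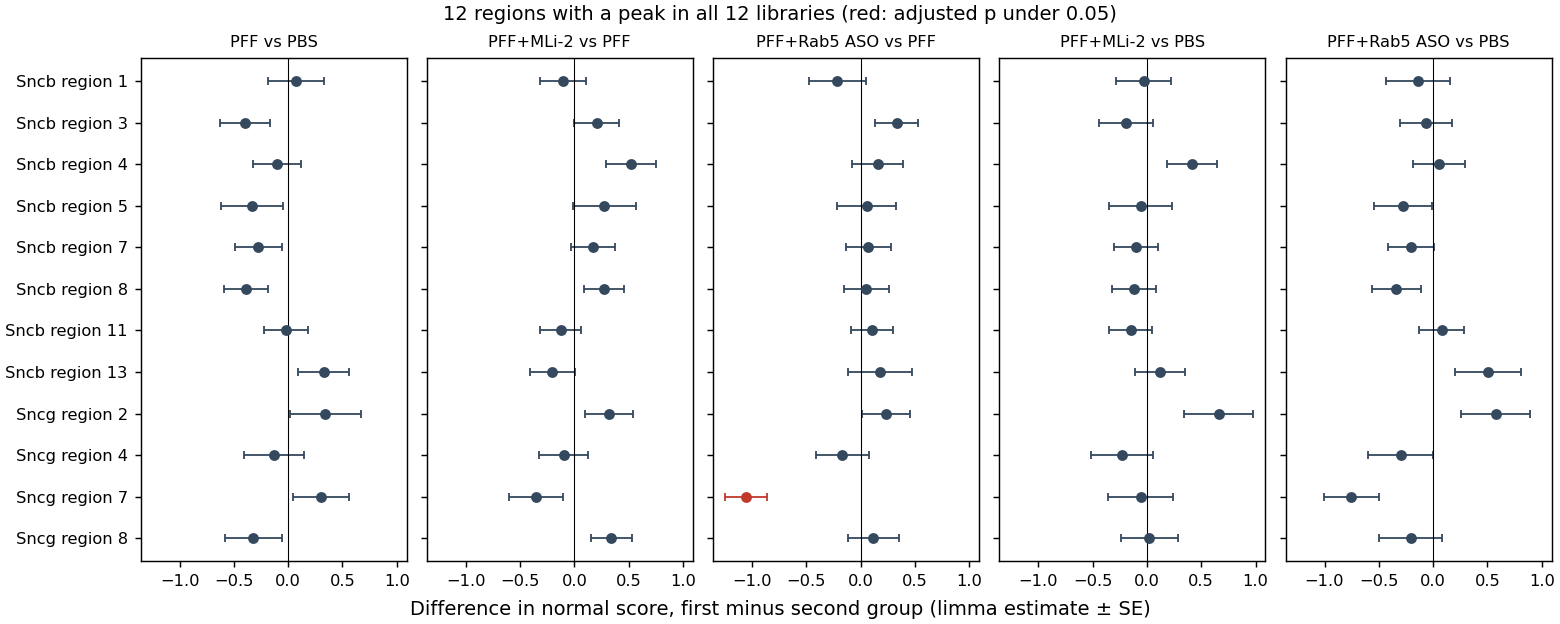
Difference in normal score between groups (horizontal axis, limma estimate ± SE, first minus second group named in each title) for the 12 member regions with a peak in all 12 libraries. Red marks an adjusted p under 0.05, which Sncg region 7 alone reached, in PFF+Rab5 ASO against PFF (-1.05).

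The remaining Sncg members lacked a peak in at least 1 library and were not tested. Region 1, intergenic between Fam25c and Sncg, had a peak in 11 libraries, with percentiles of 43.7 and 51.02 in the 2 PBS libraries that had it, 58.8, 60.8 and 47.4 with PFF, 37.7, 32.3 and 16.1 with PFF+MLi-2, and 45.3, 58.7 and 34.8 with PFF+Rab5 ASO. On these whole-list percentiles all PFF+MLi-2 libraries lay below all PFF and both PBS libraries. The 3 members above whose PFF+MLi-2 libraries lay above PFF did so on the normal score, and their whole-list percentiles overlapped. Among the common regions 17.7% did not overlap in that comparison on the normal score. The share among regions that lack a peak in some library was not counted. The summits of region 1 held 16 to 19 fragments with PFF and 14 to 18 with PFF+MLi-2, over backgrounds of 2.10 to 2.51 and 2.43 to 3.01. Regions 10 and 11, in Mmrn2 introns lying 18604 and 18817 bp upstream, had peaks in 10 and 3 libraries. Region 10 was at 39.7 and 62.8 with PBS, 55.6, 66.8 and 58.04 with PFF, 19.8, 66.03 and 74.8 with PFF+MLi-2, and 47.97 and 6.62 with PFF+Rab5 ASO, where both values lay below all PFF values. A share of all regions that separate on so few values was not counted. Region 9 had a peak in 1 PFF and 1 PFF+Rab5 ASO library. The peaks at the Sncg locus covered 1387 to 1664 bp per library with PBS, 1764 to 2087 bp with PFF, 1612 to 1717 bp with PFF+MLi-2 and 1226 to 1882 bp with PFF+Rab5 ASO. The PFF libraries all covered more than the PBS libraries and more than the PFF+MLi-2 libraries, and median peak widths across the genome were also at their highest in PFF (135 to 139 bp, against 112 to 135 bp in the other groups), a part that was not tested. These lengths include peaks in Mmrn2 introns and between genes. How many other loci separate in this way was not counted. At Sncb the covered lengths overlapped, at 3185 to 3572 bp with PBS, 3229 to 3840 bp with PFF, 3228 to 3569 bp with PFF+MLi-2 and 3184 to 3575 bp with PFF+Rab5 ASO.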

How the data were processed

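The authors made the libraries with an ATAC-seq kit, and, per the submitters' processing notes and the methods, used Trim Galore 0.6.7 for trimming, Bowtie2 2.5.1 for alignment (GRCm38) and MACS2 2.2.7.1 for peaks in each library. MACS2 options, duplicate handling and any Tn5 shift are not given in the sources used here, and would change peak width, number and height. The deposited lists give a fold (a ratio of pileup to local background), a -log10 p-value and a -log10 q-value per peak. The pileup was taken as the whole number that, with the fold, gave the Poisson p nearest to the listed one. The listed -log10 p-value was met within 0.002 for 267 of 267 member peaks.

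Peaks of the 12 lists were merged (1 bp overlap), and a region took its highest peak in each library. Normal scores of fold ranks over 72465 common regions were tested with limma 3.58.1 (R 4.3.3) on the 6 libraries of each comparison, and with an F test over 4 groups. The step was tested on simulated data, where it recovered none of the smaller added shifts and only part of the larger ones. The smaller shift was about as large as the largest difference at the members.

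The members, gene lists, motifs and tests were chosen with earlier results of these data known. Full values are given for the region nearest each start site, regions gained or lost, and, per gene, the 2 with the widest range of group mean percentile among regions with a peak in all 12 libraries and the 2 with the highest mean. Values of Sncb region 14 and Sncg regions 1 and 10, outside that rule, were added after they were seen. The values given for the exonic Sncg region, and for Sncb regions with a peak in 1 or 2 libraries, also lie outside that rule. Promoter sequences are from RefSeq (GRCm38.p6), which matched both genes. The labels call the replicates biological, and per the methods a replicate is 1 pregnancy whose cultures were divided at random among groups. No library shared more than 0.000685% of its peaks with another at the same position and fold. A marker gene that is withheld is not reported here.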

Additional observations from a re-analysis of the deposited data

How the results depend on the processing

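The lists hold no read counts, so a region without a peak is below a list's limit, not closed, and regions lacking a peak in any of the 12 libraries went through no test. Alternatives were recomputed for each comparison. The count of members gained or lost in PFF against PBS, 1, became 0 with a -log10 q of at least 5 or a 5 kb window, stayed 1 with equal numbers of top peaks (Sncb region 2 in place of Sncg region 3), and ran from 1 to 2 when libraries were left out (2 without PBS replicate 1), where 2.79 to 3.71% of all regions were gained or lost. In PFF+MLi-2 against PFF it was 1 and became 0 with a -log10 q of at least 5, with equal numbers of top peaks or with a 5 kb window, and ran from 1 to 2 (2 without PFF+MLi-2 replicate 1; 3.50 to 4.29% of all regions). In PFF+Rab5 ASO against PFF it was 0, became 1 of 23 with at least 2 of 3 libraries against 0 (12.3% of all regions), and ran from 0 to 1 (1 without PFF+Rab5 ASO replicate 3; 6.85 to 7.21%). In PFF+MLi-2 against PBS it was 0, became 1 with equal numbers of top peaks (Sncb region 2, 0.88% of all regions), and ran from 0 to 1 (1 without PBS replicate 1 or 2; 1.81 to 2.74%). In PFF+Rab5 ASO against PBS it was 0, became 2 of 24 with at least 2 of 3 against 0 (10.7% of all regions), and ran from 0 to 2 (1 without PBS replicate 2, 2 without PFF+Rab5 ASO replicate 3, with 5.29 to 6.71% of all regions). The 5 kb window leaves out Sncg region 3, the member counted in the first 2 comparisons, by its position. A count of 0 with that window was thus fixed in advance.

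The limma count of 1 member in PFF+Rab5 ASO against PFF became 0 with equal numbers of top peaks, where region 7 was not tested. It was 0 to 0 over the 6 left-out libraries, where the calls over the genome fell from 2772 to between 0 and 995. Under the other 5 settings the call held with adjusted p from 0.0259 to 0.0468 (limma). In PFF+Rab5 ASO against PBS, leaving out 1 library moved the calls over the genome from 1184 to between 0 and 35. Over 4 groups they moved from 2535 to between 277 and 2206. The limma difference at Sncb region 11 changed sign in PFF against PBS with the rank of -log10 p (0.151), without PBS replicate 1 (0.0409) and without PFF replicate 2 (0.0456; range over left-out libraries -0.0767 to 0.0456), and in PFF+Rab5 ASO against PFF with the rank of -log10 p (-0.0713), each smaller than its SE.

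Deviations of same-numbered libraries correlated at 0.00513 to 0.0788, all positive and all under 0.1, which did not show that the numbers pair the samples. Whether a number marks the same pregnancy in every group is not given in the sources used here. With the replicate block, region 7 in PFF+Rab5 ASO against PFF had a difference of -1.05 (limma, adjusted p = 0.0468), the members called were 0, 0, 1, 0 and 0 over the 5 comparisons and 0 over 4 groups, and the regions called over the genome went from 2772 to 1671 in PFF+Rab5 ASO against PFF and from 1184 to 0 in PFF+Rab5 ASO against PBS. Percentiles taken among the common regions moved all 48 group means of the 12 members by more than 1 SD, downward, for example from 17.8 to 3.42 at Sncg region 7 in PFF+Rab5 ASO.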
